A study of Mus musculus with 8 samples.

Results

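Cells take up iron through a few carriers and receptors, store it inside ferritin shells and let it out again by export or by degrading ferritin. The 9 genes described here cover those steps: Trf and Tfrc for uptake of transferrin-bound iron, Slc11a2 and Cybrd1 for uptake of free iron from the gut lumen, Fth1 and Ftl1 for storage, Ncoa4 for the release of stored iron, and Slc40a1 and Heph for export. They were chosen by symbol, because earlier results of these data had shown Ncoa4 and Cybrd1 higher in mixed WT cells and Trf high in cancer cells. All 9 are among the 13420 genes of the read count table, and 8 of them had enough reads to enter the fit of 5264 genes; Heph did not. The values that guided the choice are mixed against pure WT cells and cancer against WT cells. The members' values there are therefore given as a description with no test. Intervals given with them describe the precision of the counts or of the fit and make no allowance for that choice. The members were tested only in mixed against pure cancer cells.

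The WT cells came from small intestine organoids, cultured epithelial structures that hold stem and differentiated cells, of C57BL/6 mice with the mTmG transgene, whose cells carry a membrane tdTomato. The cancer cells came from small intestine organoids of C57BL/6 (F6) mice with Villin-CreERT2, Apc fl/fl and Tr53 fl/R172H among their alleles, marked with Dendra2; Villin drives this Cre in the intestinal epithelium, and the organoids are one line. Clumps of both were cultured alone (pure) or together at 2 WT to 1 cancer (mixed) and sorted by colour as live cells on day 3, so all groups shared medium, sort and library protocol. There are 4 groups of 2 libraries, named by the well in the label: A01 and A05 hold pure WT cells, A02 and A06 mixed WT cells, A03 and A07 pure cancer cells, and A04 and A08 mixed cancer cells. Whether these came from separate cultures is not in the labels, so the spread between them may be technical.

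CEL-Seq, the library method, captures transcripts at their 3' end. A02 was the smallest library, with 73109 reads, and A04 the largest, with 4733121. Levels are given as CPM, reads of a gene scaled to the normalized size of its library. The smallest library limits what can be seen: 26.1% of the tested genes had 0 reads in A02, against 0.646% in A04. A count of 0 over both libraries of a group allows 3 reads, a floor of 1.04 CPM for pure and 5.80 CPM for mixed WT cells, and of 5.72 CPM for pure and 0.566 CPM for mixed cancer cells. Intervals from counts cover counting error only and treat each read as independent. Several reads can come from the same molecule, so these intervals are too narrow. In A06, for example, 178 Ncoa4 reads came from 86 barcodes, which tag molecules. All 8 epithelial markers are in the table, 6 to 8 of them with reads in a library, and their summed level was 4529 to 6364 CPM in 7 libraries and 15444 CPM in A06. The 12 enterocyte markers in the table summed to between 1563 and 1913 CPM in the WT libraries and to between 0 and 15.7 CPM in the cancer libraries. Of the 8 red cell markers none is in the table. In a bulk sample, fewer cells of a type and less RNA per cell cannot be told apart.

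As background, much of iron handling is set after transcription. Iron-responsive elements are short RNA hairpins, present in untranslated regions (UTRs) of several iron genes, that bind the iron regulatory proteins when iron is low. A hairpin in the 5' UTR then holds back translation, as in ferritin, and hairpins in the 3' UTR protect the messenger RNA from decay, as in the transferrin receptor. Ferritin itself can be delivered to the lysosome by the receptor NCOA4, a route called ferritinophagy.

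To show which members hold such a hairpin, UTRs of GENCODE vM21 coding transcripts (GRCm38, the same assembly as mm10) were searched for a C, 5 bases, the loop CAGTGN and 5 bases pairing with the first 5, or the same with 1 extra base on the 3' side. Such a hairpin occurred in 5 of the 9 members and in 1.99% of 21877 coding genes. Each is shown as DNA, 5' to 3', with the loop in capitals. The 4 Tfrc hairpins lie in the 3' UTR on the plus strand of chromosome 16, at chr16:32631219-32631248, chr16:32631598-32631627, chr16:32631663-32631692 and chr16:32631710-32631739, in that order.
Tfrc: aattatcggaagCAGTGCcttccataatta
Tfrc: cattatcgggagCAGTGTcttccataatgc
Tfrc: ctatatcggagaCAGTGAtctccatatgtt
Tfrc: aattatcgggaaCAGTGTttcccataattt
The ferritin chains and the exporter carry it in the 5' UTR, Fth1 at chr19:9982732-9982761 on the plus strand, Ftl1 at chr7:45459778-45459807 and Slc40a1 at chr1:45925464-45925493, both on the minus strand.
Fth1: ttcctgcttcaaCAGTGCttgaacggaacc
Ftl1: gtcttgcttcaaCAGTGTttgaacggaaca
Slc40a1: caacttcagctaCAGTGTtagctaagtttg
Slc11a2 holds one with an extra base in the 3' UTR of 1 transcript, at chr15:100395152-100395181 on the minus strand.
Slc11a2: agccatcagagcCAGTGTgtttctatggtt
No match was found in Ncoa4, Cybrd1, Trf or Heph, which says only that these letters are not in their UTRs. A read at the 3' end gives the amount of messenger RNA, not its translation.

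Ncoa4 encodes the receptor that hands ferritin to the lysosome; it lies at chr14:32159865-32179855 on the plus strand. It had 65 and 74 reads in pure WT libraries A01 and A05, 32 and 178 in mixed WT libraries A02 and A06, 6 and 13 in pure cancer libraries A03 and A07, and 233 and 3 in mixed cancer libraries A04 and A08. As levels these were 59.5 and 41.6 CPM in pure WT, 419 and 403 CPM in mixed WT, 31.5 and 38.9 CPM in pure cancer, and 45.6 and 15.6 CPM in mixed cancer cells. Both mixed WT libraries stood far above the other 6, close to each other despite their difference in depth. The group levels were 411 CPM ± 11.5 in mixed WT, 50.5 CPM ± 12.7 in pure WT, 35.2 CPM ± 5.25 in cancer cells grown alone and 30.6 CPM ± 21.2 in mixed cancer cells (SD, n = 2 each). The mixed cancer libraries overlapped with those of pure cancer and, through A04, with those of pure WT cells. The fitted log2 fold change of mixed against pure WT cells was 3.03 (SE 0.564). It stayed between 2.83 and 3.31 when any one library was left out, and was 2.71 on barcode counts, which count different molecule barcodes rather than reads. The 32 reads in A02 came from 16 barcodes and the 178 in A06 from 86.

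**Figure D1:**
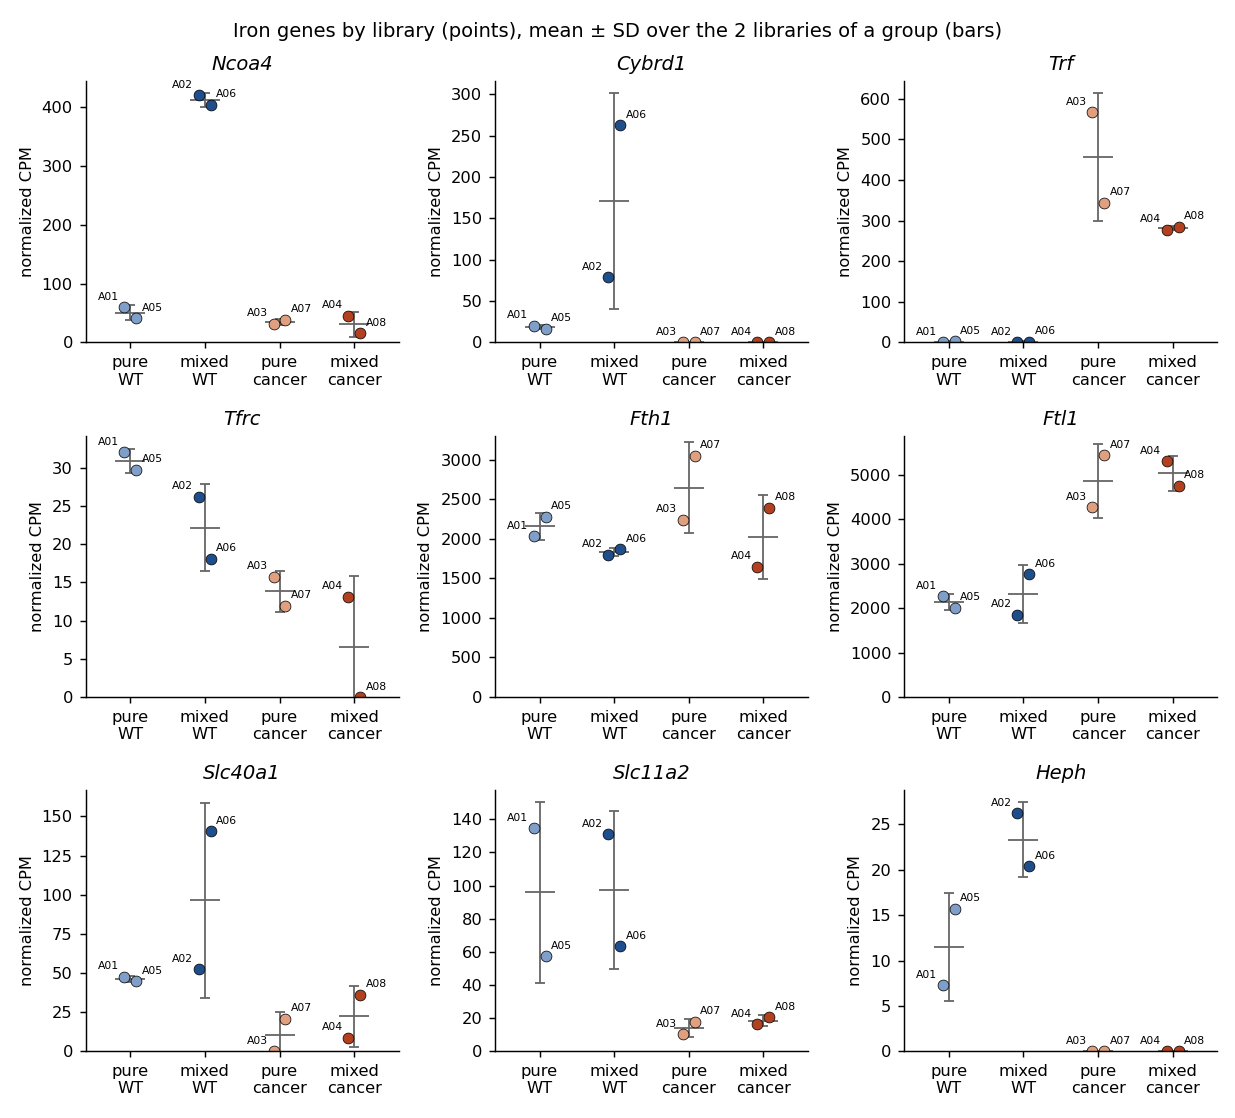
Normalized CPM (y axis, linear, a separate scale per gene) of the 9 iron genes by group (x axis). Points are libraries labelled by well, and bars give the mean ± SD of 2 libraries, cut at 0. Ncoa4 and Cybrd1 stand highest in both mixed WT libraries, Trf is near 0 in the 4 WT libraries, and Ftl1 is higher in all 4 cancer libraries than in any WT library.

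Cybrd1 encodes a ferric reductase of the enterocyte brush border (duodenal cytochrome b), which makes dietary iron fit for import; it lies at chr2:71117923-71142926 on the plus strand. Reads numbered 22 and 30 in pure WT libraries A01 and A05 and 6 and 116 in mixed WT libraries A02 and A06. The cancer libraries held 1 read in all, in A04, the deepest. The levels were 20.1 and 16.9 CPM in pure WT against 78.6 and 263 CPM in mixed WT cells. Both mixed WT libraries were above both pure WT libraries, but they differed widely from each other, and the group level was 171 CPM ± 130 against 18.5 CPM ± 2.31 (SD, n = 2 each). The fitted log2 fold change was 3.31 (SE 0.730). It was 2.00 without A06 and 3.78 without A02. Without A06 the median log2 fold change of all genes in this comparison was itself -0.74, against -0.10 with all libraries, while the value of Ncoa4 was 2.97. In pure cancer cells, with 0 reads, the level of Cybrd1 was at least 2.48-fold lower than in pure WT cells by the 95% counting interval. The single read in mixed cancer cells against 122 in mixed WT cells gives 0.0800% of the mixed WT level, with a 95% counting interval of 0.00201% to 0.454%. No fold change is given between mixed and pure cancer cells, since both were at or under their floor.

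Markers of some other cell types differed between the same WT groups. The 7 stem cell and Wnt markers summed to 428 and 588 CPM in pure WT and to 91.8 and 199 CPM in mixed WT cells, and 6 and 7 of them had reads in the pure libraries against 3 and 5 in the mixed libraries. The 6 Paneth cell markers in the table summed to 2157 and 4195 CPM in pure WT and to 918 and 1507 CPM in mixed WT cells, with 4 or more of the 6 read in each of these libraries. Enterocyte markers summed to 1913 and 1770 CPM in pure WT and 1874 and 1563 CPM in mixed WT cells, a much smaller gap. The 6 goblet cell markers in the table overlapped, at 2959 and 3034 CPM in pure WT and 2910 and 3953 CPM in mixed WT cells. The 6 enteroendocrine markers summed to 268 and 485 CPM in pure WT and to 551 and 544 CPM in mixed WT cells, higher in both mixed libraries, with 4 to 6 of them read in each of these libraries. The 8 epithelial markers summed to 6364 and 5999 CPM in pure WT and to 5584 and 15444 CPM in mixed WT cells, where A06 stood apart. The part of these shifts in the levels of Ncoa4 and Cybrd1 was not tested.

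Since Ncoa4 and Cybrd1 stood together in mixed WT cells, the 250 bases before their start sites (RefSeq, GRCm38.p6) are shown, with matches to searched motifs in capitals. The motifs, searched on both strands, were the AP-1 motif TGANTCA, found in 6.75% of 32851 such promoters, the antioxidant response element TGACNNNGC, in 10.2%, ACGTG, the core bound by hypoxia-inducible factors, in 16.6%, and the E-box CACGTG, which contains ACGTG, in 6.02%. The table held 5 of the 9 members and not Trf, Slc40a1, Slc11a2 or Heph. The Cybrd1 promoter, at chr2:71117804-71118053 on the plus strand, held an AP-1 match whose first base is at -235.
Cybrd1: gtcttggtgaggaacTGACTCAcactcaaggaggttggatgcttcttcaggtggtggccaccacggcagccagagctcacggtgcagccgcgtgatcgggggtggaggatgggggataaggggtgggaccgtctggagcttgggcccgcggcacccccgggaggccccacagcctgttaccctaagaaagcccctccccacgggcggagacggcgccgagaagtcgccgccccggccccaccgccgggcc
Ncoa4 has 3 start sites in that table. The window at chr14:32165539-32165788, on the plus strand, held ACGTG at -68 and an antioxidant response element match at -44.
Ncoa4: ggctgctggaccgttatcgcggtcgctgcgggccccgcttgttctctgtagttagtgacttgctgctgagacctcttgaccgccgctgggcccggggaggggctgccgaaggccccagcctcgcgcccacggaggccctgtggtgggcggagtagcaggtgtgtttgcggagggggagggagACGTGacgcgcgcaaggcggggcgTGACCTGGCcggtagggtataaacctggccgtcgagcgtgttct
Of the other Ncoa4 windows, one held ACGTG at -71 on the opposite strand and the other none of the motifs. These genes shared no motif, and a match is a run of letters, not a site shown to be bound.

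Trf encodes transferrin, the secreted carrier of iron in plasma, made mostly by the liver; it lies at chr9:103204001-103230444 on the minus strand. Its reads numbered 108 and 115 in pure cancer libraries A03 and A07 and 1419 and 55 in mixed cancer libraries A04 and A08. Among the WT libraries A01 and A05, the pure ones, held 1 and 5 reads, and A02 and A06, the mixed ones, 0 and 1. The levels in cancer cells were 567 and 344 CPM when pure and 278 and 285 CPM when mixed, and no WT library exceeded 2.81 CPM. Pooled over libraries, the level in pure cancer cells was 203 times that in pure WT cells, with a 95% counting interval of 92.0 to 560. In mixed cultures the ratio was 144, with an interval of 25.8 to 5687 because the mixed WT libraries held 1 read. The mixed WT level was thus 0.695% of the mixed cancer level, with an interval of 0.0176% to 3.88%, and the pure WT level 0.492% of the pure cancer level, with an interval of 0.178% to 1.09%. Between mixed and pure WT cells, with 1 and 6 reads, the ratio was 0.925, and its interval of 0.0201 to 7.62 leaves a difference of several fold either way undetectable at this depth.

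Tfrc encodes the transferrin receptor, which takes transferrin-bound iron into cells; it lies at chr16:32608920-32632794 on the plus strand. Its level was 32.0 and 29.8 CPM in pure WT libraries, 26.2 and 18.1 CPM in mixed WT libraries, 15.7 and 12.0 CPM in pure cancer libraries, and 13.1 and 0 CPM in mixed cancer libraries. All WT libraries stood above all cancer libraries. The counts were low outside the deep libraries: A02 held 2 reads, A06 held 8, A03 and A07 held 3 and 4, and A08 held 0, which in that library allows a level of up to 15.6 CPM. The fitted log2 fold change was -1.18 (SE 0.972) in pure cancer against pure WT cells and -1.03 (SE 1.03) in mixed cancer against mixed WT cells. Their 95% intervals were wide, from -3.19 to 0.83 and from -3.15 to 1.10. Without A04, which leaves only the 0 reads of A08, the second value was -6.61. Between mixed and pure WT cells the log2 fold change was -0.60 (SE 0.970). With a library left out it lay between -0.81 (without A02) and -0.32 (without A06).

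Slc11a2 encodes DMT1, the ferrous iron importer of the enterocyte apical membrane and of endosomes; it lies at chr15:100387898-100425072 on the minus strand. Its level was 135 and 57.3 CPM in pure WT, 131 and 63.4 CPM in mixed WT, 10.5 and 18.0 CPM in pure cancer, and 16.2 and 20.7 CPM in mixed cancer libraries. The pure and mixed WT libraries spanned nearly the same range, and every WT library was above every cancer library. The fitted log2 fold change in mixed against pure WT cells was -0.10 (SE 0.687), and between -0.64 (without A02) and 0.69 (without A01) with a library left out. It was -2.68 (SE 0.791) in pure cancer against pure WT cells and -2.34 in mixed cancer against mixed WT cells. Mixed and pure WT libraries thus overlapped for this importer and did not for Cybrd1, the reductase that works beside it.

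Slc40a1 encodes ferroportin, the iron exporter of the basolateral membrane; it lies at chr1:45908068-45926523 on the minus strand. Its level was 47.6 and 45.0 CPM in pure WT, 52.4 and 140 CPM in mixed WT, 0 and 21.0 CPM in pure cancer, and 8.81 and 36.3 CPM in mixed cancer libraries. The mixed WT libraries lay above the pure WT libraries, A02 only just and on 4 reads from 1 barcode. The fitted log2 fold change of mixed against pure WT cells was 1.19 (SE 0.773), and 0.09 without A06. In mixed cancer against mixed WT cells it was -2.68, and -1.56 without A04 and -3.53 without A08. In pure cancer against pure WT cells it was -1.90. Leaving out A07, which held all 7 reads of pure cancer cells, took this to -8.88, a value that depends on the fit since 0 reads remained.

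Heph encodes hephaestin, the ferroxidase that works with ferroportin; it lies at chrX:96455359-96574485 on the plus strand. Its level was 7.32 and 15.7 CPM in pure WT and 26.2 and 20.4 CPM in mixed WT libraries, on 8, 28, 2 and 9 reads. All 4 cancer libraries had 0 reads. By the 95% counting interval, Heph was at least 1.69-fold lower in pure cancer than in pure WT cells. In mixed cultures the same bound was 25.7-fold lower in cancer cells. It rests mostly on the depth of A04, since 0 reads in A08 alone allow up to 15.6 CPM. The mixed WT libraries were above the pure WT libraries, but the pooled ratio was 1.70, and its counting interval, 0.778 to 3.40, held 1.

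The genes that serve the enterocyte's own iron transport, Cybrd1, Slc11a2, Slc40a1 and Heph, therefore all had lower levels in cancer than in WT libraries. The 12 enterocyte markers went with them, at a sum of 15.7 and 12.0 CPM in the pure and 8.02 and 0 CPM in the mixed cancer libraries against 1563 CPM or more in WT libraries. In WT libraries 8 to 12 of the 12 had reads and in A08 none did, and their part in these levels was not tested.

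Fth1 encodes the ferritin heavy chain, which oxidizes iron for storage; it lies at chr19:9980598-9985098 on the plus strand. Its level was 2034 and 2276 CPM in pure WT, 1796 and 1869 CPM in mixed WT, 2241 and 3050 CPM in pure cancer, and 1646 and 2391 CPM in mixed cancer libraries. Each group overlapped with its neighbour in the order of levels. Both mixed WT libraries lay below both pure WT libraries, by a log2 fold change of -0.23 (SE 0.385), less than its standard error. On barcode counts that value turned to 1.59: no barcode count in the table exceeds 256, so barcode counts of the most abundant messenger RNAs level off in deep libraries. Read counts are therefore used for both ferritin chains.

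Ftl1 encodes the ferritin light chain, which helps iron to mineralize in the shell; it lies at chr7:45457944-45459884 on the minus strand. Its level was 2275 and 2014 CPM in pure WT, 1848 and 2771 CPM in mixed WT, 4272 and 5444 CPM in pure cancer, and 5312 and 4757 CPM in mixed cancer libraries. The cancer libraries did not overlap with the WT libraries, while pure and mixed libraries of either cell type did. The fitted log2 fold change was 1.18 (SE 0.377) in pure cancer against pure WT cells and 1.12 in mixed cancer against mixed WT cells, and 0.11 (SE 0.374) in mixed against pure WT cells. The last value was -0.30 without A06 and 0.33 without A02.

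The balance of the ferritin chains differed with the cell type. The number of Ftl1 reads per Fth1 read was 1.12 and 0.885 in pure WT (A01, A05), 1.03 and 1.48 in mixed WT (A02, A06), 1.91 and 1.79 in pure cancer (A03, A07), and 3.23 and 1.99 in mixed cancer libraries (A04, A08). All 4 cancer libraries were above all 4 WT libraries. The mean was 1.00 ± 0.165 for pure and 1.26 ± 0.320 for mixed WT cells, against 1.85 ± 0.0857 for pure and 2.61 ± 0.876 for mixed cancer cells (SD, n = 2 each). The ratio compares libraries and is not a ratio of molecules, since reads of the 2 genes may be captured unequally.

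**Figure D2:**
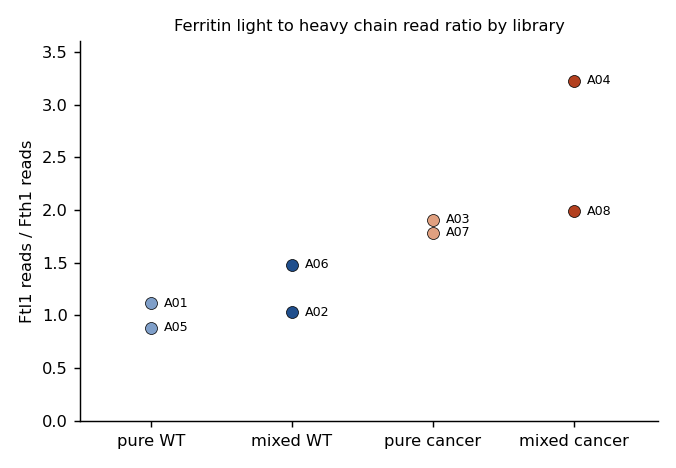
Reads of Ftl1 divided by reads of Fth1 (y axis, linear from 0) in each library, by group (x axis), with points labelled by well. The WT libraries lie between 0.885 and 1.48 and the cancer libraries between 1.79 and 3.23.

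Some counts are uncertain because other genes share sequence. Of the windows of 50 bases in the last 500 bases of coding transcripts, 78.2% for Ftl1 occurred also in another GENCODE gene, mostly the copy Ftl1-ps1, and 41.2% for Ncoa4 in the processed pseudogene Gm6768. For Trf the share was 69.2%, mostly Gm20425, a gene annotated on the same strand over Trf exons. It was 5.97% for Fth1 and 0% for the other 5 members. None of Ftl1-ps1, Gm6768 and Gm20425 is listed in the count table, and how reads from them were assigned was not tested. Exons of Slc11a2 and Heph overlap genes on the opposite strand, Gm5475 and Hsf3, also not listed.

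Read over the members together, mixed WT libraries were above pure WT libraries without overlap for 3 of the 8 members in the fit (Ncoa4, Cybrd1 and Slc40a1) and below them for 2 (Tfrc and Fth1). Among all 5264 genes in the fit, 15% were higher and 28.8% lower without overlap. By the threshold of the fit, an adjusted p under 0.05 (edgeR quasi-likelihood, Benjamini-Hochberg), 0.741% of genes passed in this comparison. In pure cultures Trf and Ftl1 were higher in cancer than in WT cells without overlap, and Ncoa4, Cybrd1, Tfrc, Slc40a1 and Slc11a2 lower, where 23.2% of all genes were higher and 29.4% lower. The same members separated in the same directions in mixed cultures, where 26.5% of all genes were higher and 18.4% lower. By the adjusted p, 9.95% and 6.42% of all genes passed. These contrasts chose the members, so nothing is read from the counts. The comparison of WT cells shares its pure WT libraries with one cancer against WT comparison and its mixed WT libraries with the other.

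**Figure D3:**
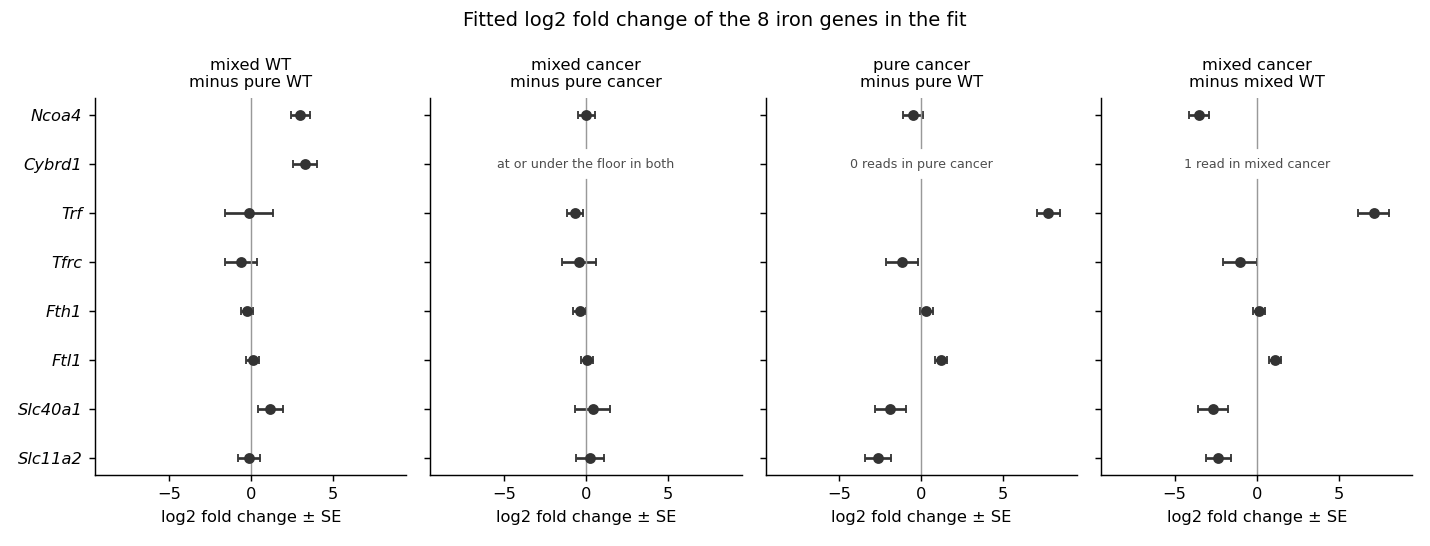
Fitted log2 fold change with its standard error (x axis) for the 8 iron genes in the fit (rows) in 4 comparisons (panels), from 2 libraries per group. Ncoa4 and Cybrd1 lie above 3 in mixed against pure WT cells, Trf lies above 7 in both cancer against WT comparisons, and all 7 values in mixed against pure cancer cells lie within 0.69 of 0; Cybrd1 has 0 or 1 read in cancer cells and is not drawn there.

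Mixed against pure cancer cells asks whether cancer cells changed these genes beside WT cells, and here the members could be tested. None of them passed (edgeR quasi-likelihood, adjusted p = 1 for each of the 7 members with a value), and 0% of all 5264 genes did. Among all genes, 69 had an unadjusted p under 0.05, and DESeq2 called none either, with 54 at an unadjusted p under 0.05. The intervals show what this comparison could have missed. The log2 fold change of Trf was -0.69, with a 95% interval of -1.70 to 0.32, and both mixed cancer libraries lay below both pure cancer libraries; 10.8% of all genes were lower in this way and 13.8% higher. For Ncoa4 it was 0.00, with an interval of -1.07 to 1.07. For the ferritin chains it was -0.39 for Fth1, with an interval of -1.19 to 0.40, and 0.05 for Ftl1, with an interval of -0.72 to 0.82. The scarcer Tfrc (-0.44, from -2.60 to 1.71), Slc40a1 (0.40, from -1.80 to 2.60) and Slc11a2 (0.23, from -1.56 to 2.02) had intervals too wide to bound a change of a few fold. Of the 8 members in the fit only Trf had groups that did not overlap. Without A04, which held 233 of the 236 Ncoa4 reads of mixed cancer cells, the value for Ncoa4 was -1.17, on the 3 reads of A08.

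To place the members, 112 other genes of iron handling were listed by role, of which 102 were in the table and 71 in the fit. Between mixed and pure WT cells none of the 71 passed the test (edgeR quasi-likelihood, smallest adjusted p = 0.116), with 4 higher and 2 lower at an unadjusted p under 0.05. Among all 5264 genes 0.741% passed, and 263 were higher and 246 lower at an unadjusted p under 0.05. The median log2 fold change of the list was -0.17, against -0.10 over all genes in the fit. DESeq2 called 2 of the list, Blvrb and Gclc, both higher, where it called 66 higher and 7 lower among all genes. Blvrb, biliverdin reductase B of haem breakdown, had the smallest adjusted p: its level was 62.2 and 55.1 CPM in pure WT libraries and 144 and 306 CPM in mixed WT libraries, a log2 fold change of 2.01 (SE 0.556). Both mixed WT libraries were above the pure ones.

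No role of the list had a gene past the threshold in mixed WT cells, and so neither did the autophagy and lysosome route that carries NCOA4 and ferritin. In this route 14 genes were in the fit, 7 with a positive and 7 with a negative log2 fold change, with a median of -0.05, and 1 was higher at an unadjusted p under 0.05. Lamp1, a lysosomal membrane protein and the most abundant of the 14, had a mean level of 1286 CPM ± 23.1 in pure WT and 1000 CPM ± 246 in mixed WT cells (SD, n = 2 each). Of all 5264 genes in the fit, 2890 had a negative log2 fold change between mixed and pure WT cells. All 8 genes of cytosolic iron-sulfur cluster assembly had a negative value, with a median of -0.43, though none passed even the unadjusted threshold. Their most abundant gene Fam96b, an assembly factor, stood at 290 CPM ± 93.0 in pure WT and 120 CPM ± 115 in mixed WT cells. Of the 18 genes of mitochondrial iron and iron-sulfur clusters 12 were negative, and the most abundant, the carrier gene Slc25a39, stood at 520 CPM ± 36.1 and 212 CPM ± 3.88 (unadjusted p = 0.00905, adjusted p = 0.265, edgeR). Pcbp1, an iron chaperone that loads ferritin, stood at 1939 CPM ± 75.4 and 1011 CPM ± 688. Gpx4, the lipid peroxidase whose loss leads to ferroptosis, an iron-dependent cell death, stood at 592 CPM ± 146 and 577 CPM ± 186. Of the 8 genes of lipid peroxidation control in the fit, 5 had a positive and 3 a negative log2 fold change. Their median was 0.21, and 2 were higher at an unadjusted p under 0.05 (edgeR). Steap1, of the family of metal reductases, stood at 25.8 CPM ± 14.4 and 11.3 CPM ± 16.0. Of the 6 genes named here as the most abundant of their role, Lamp1, Fam96b, Slc25a39 and Pcbp1 had both mixed WT libraries below both pure ones. This held for 28.8% of all genes.

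Between cancer and WT cells 2 of the 71 genes of the list passed in pure cultures, where 9.95% of all genes did. In mixed cultures 2 of the 71 passed, where 6.42% of all genes did. In pure cultures Lcn2 and Ltf were higher in cancer cells, both secreted proteins that bind iron or iron-carrying siderophores in defence against bacteria. Lcn2, lipocalin 2, had 0 reads in all 4 WT libraries and levels of 21.0 and 56.9 CPM in the pure and 16.2 and 77.8 CPM in the mixed cancer libraries. By the 95% counting interval it was at least 31.5-fold higher in pure cancer than in pure WT cells (edgeR quasi-likelihood, adjusted p = 0.00168). Ltf, lactotransferrin, had 1 read in pure WT and 14 in pure cancer cells, 76.6 times the level (counting interval 11.7 to 3240) (edgeR quasi-likelihood, adjusted p = 0.0119). Its level was 5.25 and 38.9 CPM in the pure and 26.8 and 57.1 CPM in the mixed cancer libraries, and 0 CPM in both mixed WT libraries. Leaving out A01, A05 or A07 took the adjusted p of Ltf to 0.176, 0.105 or 0.548, whereas Lcn2 passed without any one library. The 2 immune markers found in the table, of 7 written, summed to 0 and 71.8 CPM in the pure cancer libraries, to 11.3 and 25.9 CPM in the mixed ones and to at most 2.27 CPM in WT libraries, and their part in these levels was not tested. The median of the list was -0.02, against -0.05 over all genes.

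In mixed cultures Slc48a1 was higher and Blvrb lower in cancer than in WT cells. Lcn2 and Ltf, with 0 reads in mixed WT cells, came just short there (adjusted p = 0.0589 and 0.0598, edgeR quasi-likelihood). Slc48a1 encodes a haem transporter (HRG1), and its level was 0 and 20.4 CPM in mixed WT and 118 and 104 CPM in mixed cancer libraries, a log2 fold change of 2.84 (SE 0.798; edgeR quasi-likelihood, adjusted p = 0.0304). In pure cultures its level was 29.3 and 20.8 CPM in WT and 110 and 86.8 CPM in cancer libraries, and the adjusted p was 0.0629 (edgeR). The adjusted p in mixed cultures was 0.0758 without A02 and 0.165 without A04. Blvrb stood at 144 and 306 CPM in mixed WT and 55.4 and 72.6 CPM in mixed cancer libraries, a log2 fold change of -1.93 (SE 0.575; edgeR quasi-likelihood, adjusted p = 0.0448). This call was lost without A01 (adjusted p = 0.0675), A04 (0.338), A05 (0.103), A06 (0.373) or A08 (0.137). The median of the list was 0.09, against 0.12 over all genes.

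**Figure D4:**
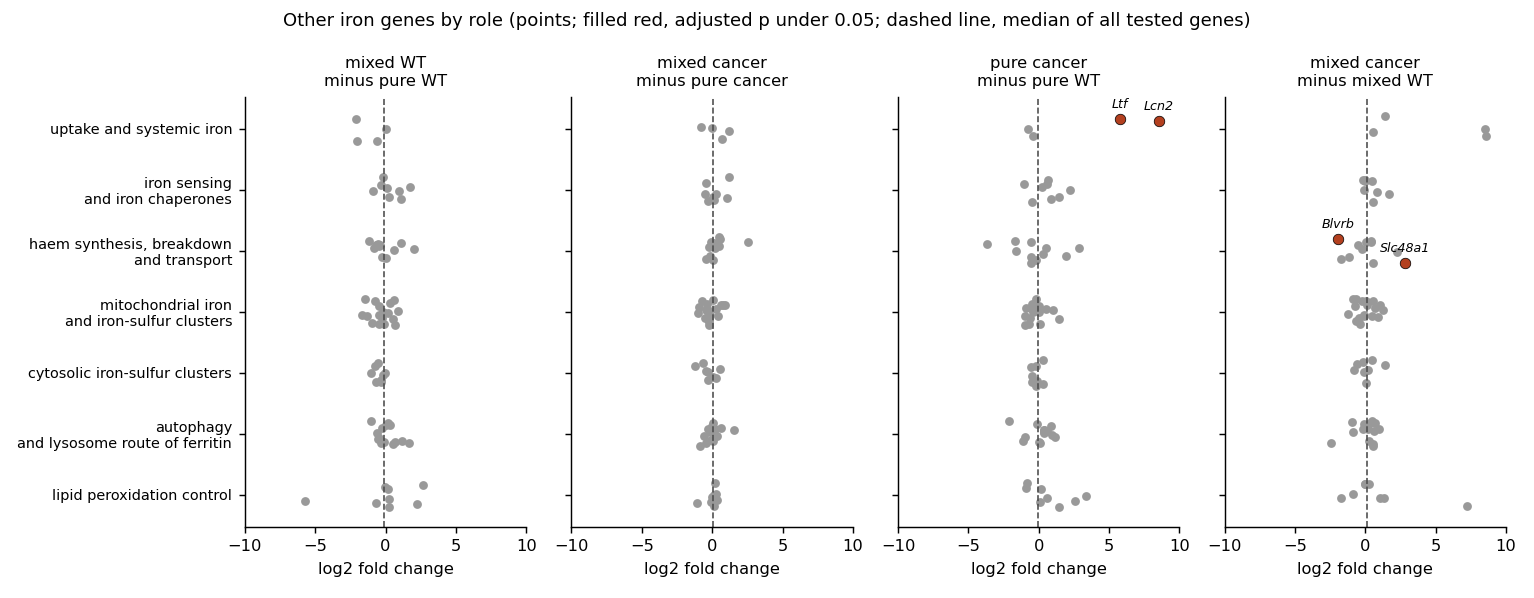
Fitted log2 fold change (x axis) of the 71 other iron genes in the fit, by role (rows, points spread vertically at random within a row) in 4 comparisons (panels); red points have an adjusted p under 0.05 and the dashed line is the median of all genes in the fit. Only Lcn2, Ltf, Slc48a1 and Blvrb are red; values of genes with 0 reads in a group, such as Lcn2, depend on the fit.

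In mixed against pure cancer cells none of the 71 passed, and none had an unadjusted p under 0.05 (edgeR quasi-likelihood and, for the adjusted p, DESeq2). The median was 0.00, against 0.03 over all genes.

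The genes whose levels followed Ncoa4, Cybrd1 and Trf most closely were taken from all genes in the fit that averaged 50 reads or more in a library, by Pearson's r of log2 CPM over the 8 libraries. The libraries of a group share its condition, so r mostly reflects group differences and is given as a description. Nearest to Ncoa4 were Sar1b (r = 0.923), Isca2 (0.921), Anxa10 (0.918), Mal2 (0.917) and Gsta4 (0.895). Isca2, a mitochondrial iron-sulfur assembly factor, is also in the iron list; its level was 109 and 115 CPM in pure WT and 184 and 150 CPM in mixed WT libraries, a far smaller step than that of Ncoa4. Nearest to Cybrd1 were Ifi27l2b (r = 0.978), Anxa10 (0.975), Lypd8 (0.970), Rfk (0.962) and Gsta4 (0.958), so that Anxa10 and Gsta4 stand in both groups. Anxa10, an annexin, had levels of 139 and 67.4 CPM in pure WT, 1337 and 1312 CPM in mixed WT, and at most 5.25 CPM in cancer libraries. Between Ncoa4 and Cybrd1 themselves r was 0.885.

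Nearest to Trf were Bex1 (r = 0.991), Tpm4 (0.988), Pgk1 (0.985), Irx5 (0.984) and Faim2 (0.984). Faim2 and Irx5, like Trf, were almost without reads in WT cells: Irx5 had 0 in all 4 WT libraries, and 142 and 102 CPM in the pure and 86.5 and 223 CPM in the mixed cancer libraries. Pgk1, a glycolytic enzyme, was read throughout, at 1403 to 1851 CPM in the WT libraries and 3973 to 4954 CPM in the cancer libraries. With a larger prior count of 10 in the log2 CPM, 4 of 5 neighbours of Ncoa4, 3 of 5 of Cybrd1 and 2 of 5 of Trf were still among the nearest 5.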

How the data were processed

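Sorted pure and mixed WT and cancer cells were sequenced in bulk (8 libraries, 2 per group). Per the paper's methods, BWA placed reads on the RefSeq transcriptome of mm10, reads with several equal placements were dropped and featureCounts gave counts per gene. The authors deposited read counts and counts of different barcodes per gene, both without normalization, and estimated counts of transcripts corrected for barcode collisions; a DESeq2 (1.22.2) table of mixed against pure WT cells with log2 fold changes, p-values and related columns was not used. The strandedness of the counting is not given in the sources used here.

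Read counts were fitted with edgeR 4.0.16 (R 4.3.3; limma 3.58.1): filterByExpr at a minimum count of 10, TMM factors, 1 quasi-likelihood fit of all 8 libraries, adjusted p (Benjamini-Hochberg) under 0.05 over 5264 genes. Estimated counts were rounded before use. Alternatives were barcode and transcript counts, other factors (median-of-ratios, upper-quartile), no filter or a minimum of 50, only the 4 libraries compared, DESeq2 1.42.0 and each library left out. The members and lists were chosen with earlier results of these data known. Named are all members, list genes that passed, the most abundant list gene per role, and the 5 genes most like Ncoa4, Cybrd1 and Trf. Gclc and Lamp2 were named after their values were seen. The most abundant gene of 1 role and 1 allele of the cancer cells are not reported here.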

Additional observations from a re-analysis of the deposited data

Results flagged for a closer look

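The fitted values of Blvrb for mixing had opposite signs in the 2 cell types, but neither passed the test. In WT cells the log2 fold change was 2.01 (SE 0.556; edgeR quasi-likelihood, adjusted p = 0.116) and both mixed libraries (144 and 306 CPM) were above both pure ones (62.2 and 55.1 CPM), as for 15% of all genes. In cancer cells it was -0.45 (SE 0.584; edgeR quasi-likelihood, adjusted p = 1), less than its standard error, and both mixed libraries (55.4 and 72.6 CPM) were below both pure ones (78.7 and 89.8 CPM), as for 10.8% of all genes. The difference between these changes was not tested.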

How the results depend on the processing

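In WT cells the list of 71 other iron genes had 0 calls; 1 gene (Blvrb) was called on barcode counts and on transcript counts, 2 (Blvrb and Gclc) with only the 4 libraries compared and with DESeq2, and 0 to 1 with a library left out (Blvrb without A02 or A07). In pure cancer against pure WT cells 2 genes were called, against 6 on barcode counts, 8 on transcript counts, 4 with median-of-ratios factors, 4 with upper-quartile factors, 1 at a minimum count of 50, 5 with only the 4 libraries compared, 4 with DESeq2 and 1 to 7 with a library left out (7 without A02, 6 without A03 or A06, 1 without A01 or A05). In mixed cancer against mixed WT cells 2 genes were called, against 4 on transcript counts, 1 at a minimum count of 50, where only 21 of the list were tested, 0 with only the 4 libraries compared, and 1 to 5 with a library left out (5 without A07, 4 without A03 or A06, 1 without A04 or A08). The causes were not tested.

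Of the members in mixed against pure cancer cells, no call was made under any alternative. The log2 fold change of Ftl1 turned to -0.63 on barcode and -0.56 on transcript counts, that of Ncoa4 to -0.036 with median-of-ratios factors, -0.077 with only the 4 libraries and -0.049 with DESeq2, and that of Slc40a1 to -0.40 on transcript counts. With a library left out the values ranged from -0.11 to 0.30 for Ftl1, from -1.17 to 0.42 for Ncoa4, from -0.42 to 7.28 for Slc40a1, from -0.034 to 0.80 for Slc11a2 and from -5.98 to 0.022 for Tfrc, where the lone remaining library of a group is assumed to vary like the other groups. In the other comparisons 346 of 364 values of members kept their sign. Most of those that did not were in mixed against pure WT cells. Trf kept its sign there in 11 of 15, Slc11a2 in 11 of 16, Ftl1 in 13 of 16 and Fth1 in 14 of 16. The labels give the groups no shared replicate numbers and do not tie wells to cultures, so no fit with pairs of wells was run.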
